A study of Homo sapiens with 20 samples.

Results

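The comparison described here set HEK293T cells given a first set of small interfering RNAs (siRNAs) against HUWE1 beside cells given non-targeting siRNA. Its members were chosen by their labels, as the 4 HUWE1 siRNA libraries and the 4 non-targeting libraries that carry no set number, and they are 8 of the 20 libraries of the series. HEK293T is a human embryonic kidney line that expresses the SV40 large T antigen. The sources used here give no genotype, dose or time beyond this, so the groups differ in their labels only by the siRNA, and both received an siRNA. The labels call the 4 libraries of a group biological replicates, and 12 further libraries hold HUWE1 siRNA sets 2 and 3 and the 4 non-targeting libraries that those 2 sets share. The sources used here do not say what sets the siRNA sets apart and give no siRNA sequences. The extraction text shared by the samples speaks of siRNAs against UBA1 and ubiquitin-conjugating enzymes, whereas titles and descriptions name HUWE1, and the HUWE1 and UBA1 values below bear on this. Expression was measured by RNA sequencing with a stranded mRNA library kit and is given as TPM, a length-corrected transcript share that sums to 1000000 in each library. A knockdown lowers a transcript without removing it, so the HUWE1 siRNA libraries hold cells with less HUWE1 and not cells that lack it.

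HUWE1 is a very large ubiquitin ligase of the HECT class, a class in which the enzyme takes the ubiquitin onto itself before passing it to a substrate. Proteins reported as its substrates include MYC and other transcription factors, the apoptosis regulator MCL1, DNA replication factors and unassembled ribosomal proteins. RNA sequencing reports transcripts, so the levels below are not those of the substrate proteins.

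HUWE1 itself was reduced by its siRNA in all 4 libraries. HUWE1 (GRCh38, chromosome X, 53532096 to 53686729, minus strand) read 157, 162, 155 and 155 TPM in the controls and 86.1, 86.9, 83.5 and 83.6 TPM after HUWE1 siRNA. The highest knockdown library lay far below the lowest control, and 54.1% of the mean control level was left. The log2 fold change was -0.88 ± 0.025 (SE, limma adjusted p = 1.69e-07), and the difference of the 4 against 4 values gave the smallest p that the two-sided exact permutation test allows, 0.0286.

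Of the neighbours of HUWE1 on the X chromosome, the one with the largest called fall was HSD17B10. It encodes a mitochondrial dehydrogenase that is also a subunit of the mitochondrial RNase P, lies 97723 bases from HUWE1 and read 225, 242, 231 and 226 TPM in the controls and 149, 160.0, 149 and 157 TPM after HUWE1 siRNA. The groups did not overlap, and the log2 fold change was -0.58 ± 0.034 (limma adjusted p = 1.04e-05). Of the genes that flank it, SMC1A, a cohesin subunit gene, had a log2 fold change of 0.02. RIBC1 had 0.17 ± 0.085 (SE), and neither was called. AC233728.1, a noncoding gene on the same strand and within the bounds of HSD17B10, was not called (-0.57), and the sources used here do not say how reads that both genes could hold were assigned. Among the other neighbours within 500000 bases, the histone demethylase gene KDM5C was called higher (0.13) and FAM120C lower (-0.17), a call lost in 6 of the 8 fits that each left out 1 library (limma adjusted p up to 0.111). RIBC1 was called without non-targeting replicate 1 (limma adjusted p = 0.0228). In the separately normalized libraries of sets 2 and 3, where HUWE1 had log2 fold changes of -0.78 and -0.94, the log2 fold change of HSD17B10 was -0.03 and -0.01, and whether it differs from that of set 1 was not tested.

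**Figure D1:**
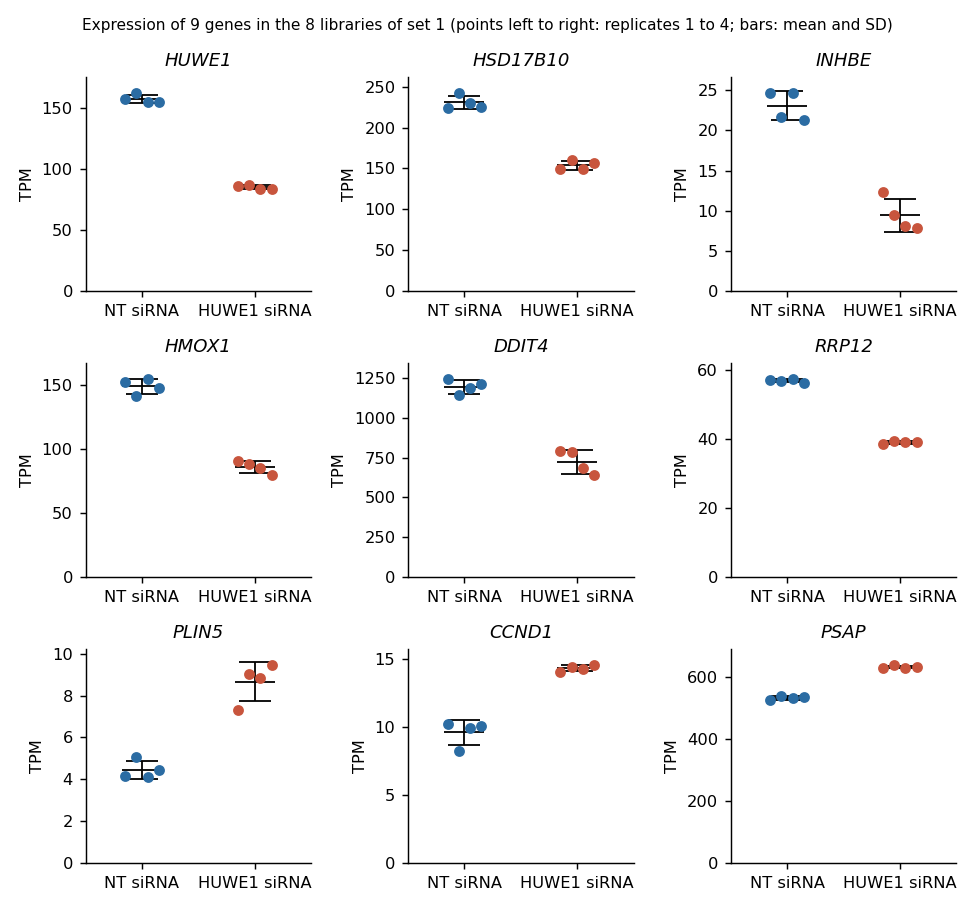
Level in TPM (vertical axis, from 0) of 9 genes in the 4 non-targeting (NT, blue) and 4 HUWE1 siRNA (red) libraries of set 1, with the mean and SD of each group in black. The groups do not overlap for any of the 9 genes, some of which were named by a rule that requires this. HUWE1 siRNA replicate 1 lies nearest to the controls for INHBE and PLIN5.

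Libraries of a group were close to each other. Pairs of libraries of the same group correlated across genes at 0.994 to 0.996 on the log2(TPM + 1) scale, and pairs from different groups at 0.990 to 0.994, as a description, since genes are no replicates. Mitochondrially encoded transcripts took 24.3% to 25.8% of TPM in the controls and 25.1% to 26.2% after HUWE1 siRNA. The knockdown library nearest to the controls varied by gene. It was HUWE1 siRNA replicate 1 for INHBE (12.3 TPM, the other 3 at most 9.49) and DUSP1 (172.8 TPM, the other 3 at most 158.9). It was replicate 2 for TRIB3 (43.4 TPM) and replicate 3 for S100P (15.4 TPM). By its highest correlation with a control, replicate 1 (0.99399) was little above replicate 3 (0.99346). The tables hold no counts, so the depth is unknown and no counting interval can be given. Markers of other cell types were checked in 3 lists. Of 13 fibroblast markers 9 were tested, 3 rose (33.3%, against 12.3% of all genes tested) and 3 fell (33.3%, against 17.9%). Their summed level was 98.1% to 103.2% of the control mean in the controls and 88.6% to 93.6% after HUWE1 siRNA. Of 16 hepatocyte and squamous epithelium markers 7 were tested, 1 rose (14.3%) and 2 fell (28.6%), S100P among the latter. The summed level of this list was 95.6% to 104.6% and 81.9% to 87.9%. Whether other cells had a part in these sums was not tested. Of 18 blood and endothelial marker genes, 4 were tested and 0 of these were called, against 30.3% of all genes tested. Their summed level was 9.69 to 13.3 TPM in the controls and 10.5 to 12.1 TPM after HUWE1 siRNA, and HBB and MS4A1 were listed at 0 in every library. In bulk samples fewer cells of a type and less RNA per cell cannot be told apart.

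The response was broad and shallow. The table lists 45372 genes, and the 16057 that reached 1 TPM in 4 or more of the 8 libraries were tested. Limma called 4863 of them, 30.3%, with Benjamini-Hochberg adjustment at 0.05. Of these, 1983 genes were higher (12.3%) and 2880 lower (17.9%). The median size of the log2 fold change was 0.20 over the called genes and 0.10 over all genes tested, on the log2(TPM + 1) scale, which understates the change of low genes. Only 175 called genes (1.09% of those tested) reached 0.5, of which 34 were higher and 141 lower. For 4344 of the called genes, 89.3%, no value of one group fell within the other group. Over all genes tested, the groups did not overlap for 5085 (31.7%). Called higher genes made up 40.8% of the calls, against 50.5% when libraries were rescaled by median ratios and 50.8% after quantile normalization, so the balance of higher and lower genes depends on the scaling. Together the called higher genes took 163513 ± 2262 TPM in the controls and 182992 ± 3341 TPM after HUWE1 siRNA, and the called lower genes took 183799 ± 987 and 158893 ± 2246 TPM (SD, n = 4), sums over genes picked for their change.

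**Figure D2:**
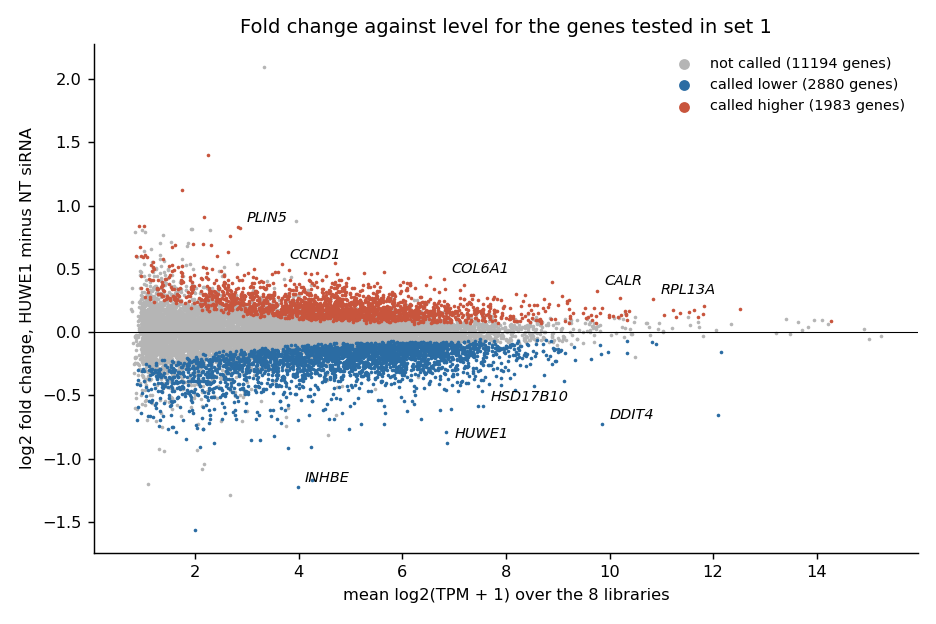
Log2 fold change (vertical axis, HUWE1 minus NT siRNA) against the mean log2(TPM + 1) over the 8 libraries (horizontal axis) for the 16057 genes tested in set 1, 1 point a gene. Called genes (1983 higher in red, 2880 lower in blue) run along both sides of 0 at most levels, and few lie beyond 0.5.

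The largest decreases under the rule for named genes held genes of several roles. That rule took only called genes whose groups did not overlap. INHBE, which encodes an inhibin beta subunit, read 24.6, 21.7, 24.7 and 21.4 TPM in the controls and 12.3, 9.49, 8.08 and 7.80 TPM after HUWE1 siRNA. Its log2 fold change was -1.23 ± 0.12 (limma adjusted p = 1.44e-04) and was the largest fall of the rule. S100P, a calcium-binding protein gene, read 27.1, 28.7, 29.3 and 26.1 TPM in the controls and 11.03, 11.3, 15.4 and 10.05 TPM after HUWE1 siRNA (log2 fold change -1.17). Both genes lost more than the targeted transcript did on this scale. G0S2, an inhibitor of the triglyceride lipase ATGL, read 24.6, 25.9, 24.97 and 23.3 TPM in the controls and 11.6, 13.6, 13.4 and 12.3 TPM after HUWE1 siRNA (-0.91). The interferon-inducible transcription factor gene ETV7 fell from 5.97 ± 0.96 to 2.86 ± 0.98 TPM (-0.87).

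HMOX1, which encodes heme oxygenase 1, read 152, 141, 155 and 147 TPM in the controls and 90.8, 87.9, 85.3 and 79.7 TPM after HUWE1 siRNA. Its log2 fold change was -0.79 ± 0.043 (limma adjusted p = 8.18e-06). DDIT4, a stress-induced inhibitor of mTORC1, read 1244, 1142, 1184 and 1213 TPM in the controls and 790.5, 782, 683 and 639 TPM after HUWE1 siRNA. It was among the most abundant genes of this size of change, with a log2 fold change of -0.73 ± 0.064, and replicates 3 and 4 of HUWE1 siRNA were its lowest libraries. MED19, a subunit of the Mediator complex that links transcription factors to RNA polymerase II, read 42.5, 39.7, 38.6 and 37.4 TPM in the controls and 24.4, 21.6, 22.1 and 23.5 TPM after HUWE1 siRNA (-0.76). TRIB3, a pseudokinase gene induced by the integrated stress response, read 63.7, 64.9, 59.7 and 64.6 TPM in the controls and 37.7, 43.4, 36.2 and 34.7 TPM after HUWE1 siRNA (-0.72). DEPP1, a FOXO target gene, fell from 103 ± 4.38 to 63.96 ± 4.72 TPM (-0.68). The groups of these 5 genes do not overlap, as the rule required. The rule also named PGBD5 (-0.69), CAMK2N2 (-0.66), TCEAL7 (-0.64), C11orf96 (-0.63) and the noncoding RNAs LINC01144 (-0.69) and LINC01623 (-0.69).

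Among genes at a mean of 100 TPM or more, the largest decreases also held CBX6, a chromobox subunit gene of Polycomb complexes, which read 132, 132, 128 and 131 TPM in the controls and 85.4, 87.5, 83.6 and 83.4 TPM after HUWE1 siRNA. The spread within each group was small and the log2 fold change was -0.62 ± 0.025 (limma adjusted p = 1.84e-06). NEFM, the medium neurofilament gene that HEK293T cells express, read 159, 149, 144 and 151 TPM in the controls and 101, 103, 94.3 and 97.4 TPM after HUWE1 siRNA (-0.60). The other neuronal filament genes INA (-0.39) and NEFL (-0.28) fell too. The stress-induced transcription factor gene ATF3 fell from 214 ± 10.1 to 143 ± 17.9 TPM (-0.59), and the phosphatase genes CDC25A, which promotes cell cycle entry (-0.47), and DUSP1, which switches off MAP kinases (-0.47), fell as well. SRM, the spermidine synthase gene, read 343, 342, 326 and 342 TPM in the controls and 232, 255, 247 and 252 TPM after HUWE1 siRNA (-0.46). BCYRN1, a noncoding RNA with many near-identical Alu copies in the genome, was named after its values were seen, and its 4744, 6666, 6156 and 4617 TPM in the controls and 4369, 3144, 3416 and 3086 TPM after HUWE1 siRNA depend on how such reads were assigned.

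Increases were smaller. PLIN5, which coats lipid droplets, read 4.15, 5.05, 4.11 and 4.45 TPM in the controls and 7.31, 9.01, 8.83 and 9.46 TPM after HUWE1 siRNA. Its log2 fold change of 0.83 ± 0.082 (limma adjusted p = 1.62e-04) was the largest rise under the rule, at a low level. MIR22HG, the host gene of a microRNA, read 4.27, 3.01, 4.26 and 4.19 TPM in the controls and 8.24, 6.80, 8.47 and 6.01 TPM after HUWE1 siRNA (0.76). The interferon-induced gene IFI35 rose from 3.97 ± 0.40 to 6.76 ± 1.15 TPM (0.64). PLA2G6, a phospholipase gene, read 20.7, 22.1, 19.5 and 19.5 TPM in the controls and 29.95, 32.9, 28.97 and 29.7 TPM after HUWE1 siRNA (0.55), and CCND1, which encodes cyclin D1, read 10.2, 8.20, 9.92 and 10.04 TPM in the controls and 14.04, 14.4, 14.3 and 14.5 TPM after HUWE1 siRNA (0.54). For all 5 genes the lowest HUWE1 siRNA library exceeded the highest control, as the rule required. The other genes of the rule were UNC5C, a netrin receptor gene (0.50), BAIAP3 (0.49), the collagenase gene MMP13 (0.48), the zinc transporter gene SLC39A10 (0.48), the apolipoprotein gene APOE (0.48), TMEM37 (0.47), the ephrin receptor gene EPHA7 (0.47), the inositol transporter gene SLC5A3 (0.47), NUDT14 (0.46) and the epoxide hydrolase gene EPHX2 (0.46). The call on APOE was lost without non-targeting replicate 1 or HUWE1 siRNA replicate 4.

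At 100 TPM or more, the rises began with JUP, which encodes the junction protein plakoglobin and read 77.2, 78.9, 78.3 and 79.99 TPM in the controls and 100.5, 108, 109 and 110.4 TPM after HUWE1 siRNA. The log2 fold change was 0.44 ± 0.032 (limma adjusted p = 3.46e-05). COL6A1, a collagen VI chain gene, read 98.9, 93.99, 94.1 and 95.8 TPM in the controls and 119, 136, 131 and 128 TPM after HUWE1 siRNA (0.42), and its partner chain COL6A2 rose by 0.38. CALR, which encodes the endoplasmic reticulum chaperone calreticulin, read 751, 733, 803 and 794 TPM in the controls and 901, 954, 987 and 1028 TPM after HUWE1 siRNA (0.33). None of these 3 pairs of groups overlapped, as the rule required. IRS4, an insulin receptor substrate that HEK cells express at a high level, rose from 417 ± 51.2 to 547 ± 41.3 TPM (0.40). DNPH1 (0.38), the lysosomal sialidase gene NEU1 (0.34), the cold-inducible RNA-binding protein gene CIRBP (0.34), the glutaminyl-tRNA synthetase gene QARS (0.33), the ribosome assembly gene NOP53 (0.32) and HLA-C (0.30) completed the rule.

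Most called genes that build ribosomes in the nucleolus were lower. MYC, which is known to drive such genes, was called lower too, and whether it had a part was not tested. Of 47 genes for ribosomal RNA transcription and small subunit assembly, 33 fell (70.2%) and 2 rose (4.26%), with a median log2 fold change of -0.15. Of 49 genes for large subunit assembly, 32 fell (65.3%) and 0 rose, with a median of -0.15. The ribosome assembly gene NOP53, which rose by 0.32 as given above, was on neither list. Over all genes tested the median was -0.01, with 17.9% called lower and 12.3% higher. RRP12, a factor in small subunit export, read 57.1, 56.8, 57.3 and 56.2 TPM in the controls and 38.5, 39.3, 38.95 and 38.98 TPM after HUWE1 siRNA. The values of each group lay close together and the groups did not overlap. The log2 fold change was -0.54 ± 0.023 (limma adjusted p = 1.84e-06). DHX37, a helicase of the small subunit processome, read 48.5, 45.7, 44.99 and 46.3 TPM in the controls and 33.1, 33.8, 32.6 and 33.5 TPM after HUWE1 siRNA (-0.47). CCDC86 read 92.1, 86.01, 85.9 and 89.9 TPM in the controls and 59.2, 64.2, 65.3 and 61.1 TPM after HUWE1 siRNA (-0.50).

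The processome subunit gene UTP4 fell from 64.3 ± 1.49 to 49.8 ± 1.69 TPM (-0.36) and TCOF1, which encodes the RNA polymerase I cofactor treacle, from 174 ± 5.07 to 136 ± 4.31 TPM (-0.35). Among large subunit factors, the GTPase gene GNL2 fell by 0.29 on the log2 scale, the remodelling ATPase gene MDN1 by 0.37, RPF2 by 0.34 and RRS1, its partner in assembling the 5S particle, by 0.39. The large RNA polymerase I subunit genes POLR1A (-0.25) and POLR1B (-0.30) fell. UBTF, which encodes the factor that opens ribosomal DNA, had a log2 fold change of -0.003 (limma adjusted p = 0.932), and the abundant nucleolar protein genes NPM1 (-0.02) and FBL (-0.05) were not called. NCL, which encodes nucleolin, fell by 0.12. MYC itself read 244, 238, 225 and 243 TPM in the controls and 212, 218, 205 and 205 TPM after HUWE1 siRNA (-0.18 ± 0.032, limma adjusted p = 0.00292). The summed level of the small subunit list was 98.8% to 100.7% of the control mean in the controls and 90.1% to 91.1% after HUWE1 siRNA, and that of the large subunit list was 97.5% to 101.8% and 90.4% to 91.6%.

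**Figure D3:**
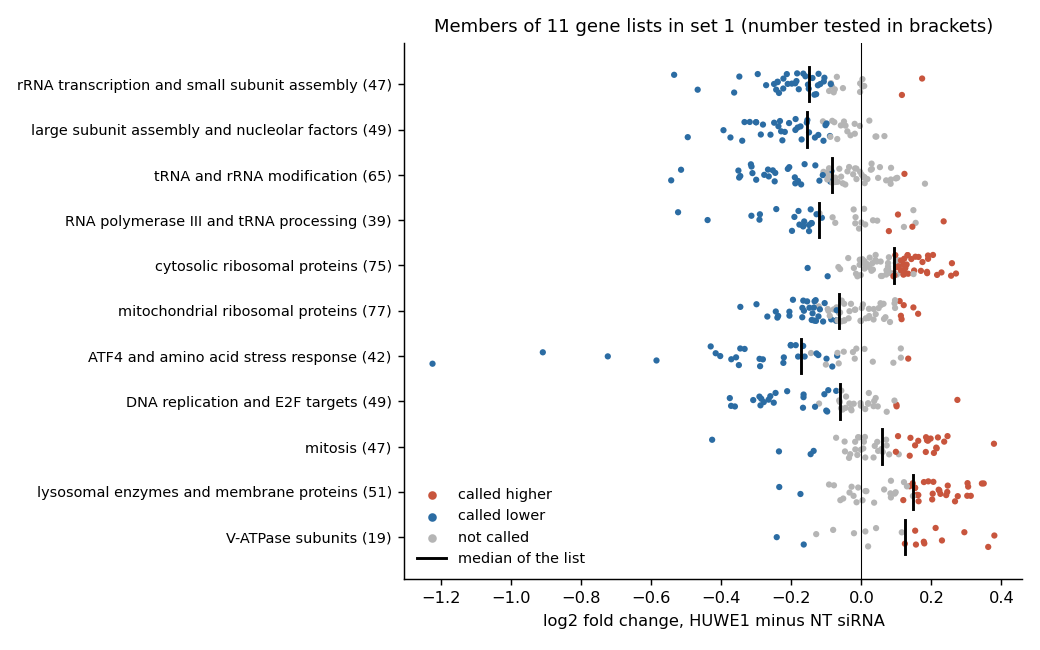
Log2 fold change (horizontal axis) of each tested member of 11 gene lists in set 1, coloured by whether limma called it, with the list's median as a black line. Members of the ribosome assembly and ATF4 lists lie mostly left of 0, and members of the lysosomal and V-ATPase lists mostly right of it.

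The E-box CACGTG is the sequence that MYC with its partner MAX and the factors TFEB and TFE3 are known to bind, so promoters of members that moved together were searched for it on both strands. The windows were those of RefSeq on GRCh38.p14, from 250 bases before to 50 after a start, and 11062 of the 16057 genes tested matched one by symbol. The letters stood in 7.43% of all 27305 windows, in 10.3% of those of the genes tested, in 10.5% of those called higher, in 13.2% of those called lower and in 9.37% of those not called. They stood in 14 of 40 windows of the small subunit list (35.0%), 12 of them of genes called lower, and in 13 of 43 of the large subunit list (30.2%), 9 of them called lower. Cytosolic ribosomal protein genes had the letters in 3 of 59 windows (5.08%). A match is a description of the letters and not a binding site or a cause, and these shares were not tested. The 250 bases before the start are shown for SRM, a gene of polyamine synthesis, and for CCDC86 and UTP4, picked after the matches were seen because each fell and holds 1 E-box, which is in capitals.
SRM, chr1:11060019-11060268, minus strand: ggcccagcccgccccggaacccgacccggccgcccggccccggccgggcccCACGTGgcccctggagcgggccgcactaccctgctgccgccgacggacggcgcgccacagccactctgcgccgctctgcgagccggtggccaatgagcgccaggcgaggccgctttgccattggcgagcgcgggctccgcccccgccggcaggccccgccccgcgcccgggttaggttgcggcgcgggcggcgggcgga
CCDC86, chr11:60841863-60842112, plus strand: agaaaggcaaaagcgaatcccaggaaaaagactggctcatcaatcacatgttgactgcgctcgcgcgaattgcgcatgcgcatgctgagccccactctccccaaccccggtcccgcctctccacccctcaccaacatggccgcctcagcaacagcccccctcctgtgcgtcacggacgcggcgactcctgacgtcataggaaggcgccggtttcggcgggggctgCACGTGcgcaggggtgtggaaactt
UTP4, chr16:69132399-69132648, plus strand: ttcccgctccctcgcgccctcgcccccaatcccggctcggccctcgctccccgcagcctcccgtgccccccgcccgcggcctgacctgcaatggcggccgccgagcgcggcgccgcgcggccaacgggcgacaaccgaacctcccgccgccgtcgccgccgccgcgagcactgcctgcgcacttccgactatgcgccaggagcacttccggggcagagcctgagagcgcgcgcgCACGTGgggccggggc

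Called genes of enzymes that modify and process transfer RNA were mostly lower. Of 65 genes for transfer and ribosomal RNA modification 27 fell (41.5%), 1 rose and 37 were not called, with a median of -0.08. Of 39 genes of RNA polymerase III and transfer RNA processing 20 fell (51.3%) and 4 rose (10.3%), with a median of -0.12. Over all genes tested 17.9% were called lower and 12.3% higher. TRMT61A, the catalytic subunit gene of a tRNA methyltransferase, read 74.05, 74.7, 72.5 and 73.5 TPM in the controls and 50.9, 54.2, 49.4 and 50.6 TPM after HUWE1 siRNA. Its log2 fold change was -0.52 ± 0.031 (limma adjusted p = 1.09e-05), and TRMT6, its partner subunit, fell by 0.35. MRM1, a mitochondrial ribosomal RNA methyltransferase gene, fell from 13.97 ± 0.75 to 9.28 ± 0.69 TPM (-0.54), and the tRNA guanine methyltransferase gene METTL1 from 75.8 ± 4.15 to 59.1 ± 1.29 TPM (-0.35). GTF3A, which encodes the factor that recruits RNA polymerase III to the 5S ribosomal RNA gene, read 89.3, 88.01, 89.1 and 87.5 TPM in the controls and 67.5, 62.8, 65.03 and 64.6 TPM after HUWE1 siRNA (-0.44). RPP40, a subunit gene of RNase P, fell by 0.52. The polymerase subunit genes POLR3D (-0.29) and POLR3C (-0.31) fell, and MAF1, a repressor of this polymerase, rose by 0.15. In each of these genes all 4 HUWE1 siRNA values lay on one side of all 4 control values.

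Called transcripts of the ribosomal proteins themselves were mostly higher. Among the 75 genes for proteins of the cytosolic ribosome 34 rose (45.3%, against 12.3% of all genes tested), 2 fell (2.67%, against 17.9%) and 39 were not called, with a median log2 fold change of 0.09. RPL13A read 1679.6, 1615, 1646 and 1756 TPM in the controls and 1901, 2036, 2001 and 2076 TPM after HUWE1 siRNA (0.26 ± 0.035, limma adjusted p = 7.05e-04). RPS25 read 1113, 969, 1069 and 1142 TPM in the controls and 1254, 1276, 1282 and 1358 TPM after HUWE1 siRNA (0.27), and RPL10, on the X chromosome, rose by 0.19. The groups did not overlap for these 3 genes, while the summed level of the list did overlap, at 98.1% to 102.8% of the control mean in the controls and 101.4% to 108.8% after HUWE1 siRNA. The count of 34 became 44 under median ratio scaling and 25 under quantile normalization, and it was 22 without non-targeting replicate 3 and 17 without HUWE1 siRNA replicate 4. It was 18 without the filter on low values and 22 without the variance trend, with the median positive in each of these fits. Many of these genes have processed pseudogenes, and the sources used here do not say how reads were shared among copies.

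Translation factors were called in both directions. Of 48 genes 13 rose (27.1%, against 12.3% of all genes tested) and 19 fell (39.6%, against 17.9%). The elongation factor gene EEF1A1, which shares with ribosomal protein genes a start rich in pyrimidines, rose from 5514 ± 217 to 6256 ± 186 TPM (0.18), a call lost with quantile normalization and without the filter on low values. The initiation factor 3 subunit genes EIF3F (0.27), EIF3E (0.26), EIF3L (0.14) and EIF3H (0.12) rose. EIF1, a start codon selection factor, fell from 854 ± 11.1 to 739 ± 9.03 TPM (-0.21), and EIF2S1 (-0.26), EIF4G1 (-0.18), EIF3I (-0.15) and EIF3J (-0.25) fell. Of 77 mitochondrial ribosomal protein genes 29 fell (37.7%) and 6 rose (7.79%), with a median of -0.06, led by MRPS18B, which read 192, 185, 191 and 194 TPM in the controls and 149, 150.3, 149 and 150.0 TPM after HUWE1 siRNA (-0.35 ± 0.021, limma adjusted p = 1.31e-05). Nuclear-encoded respiratory chain genes had 22 of 73 members higher (30.1%) and 5 lower (6.85%), with a median of 0.05, COX6C at 0.25 and COX5B at 0.19. Of the 13 mitochondrially encoded messenger RNAs, 1 was called, MT-ATP6 at 0.09, and that call was lost in 7 of the 8 fits that left out 1 library, all but the one without non-targeting replicate 2.

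The list of amino acid stress genes had the lowest median of the 11 lists plotted, which were chosen after values were seen. The histone list, not plotted, had a lower median (-0.23). ATF4 is the transcription factor made when the integrated stress response slows translation, and it turns on amino acid synthesis and transport. Of 42 genes of this response 28 fell (66.7%, against 17.9% of all genes tested) and 1 rose (2.38%, against 12.3%). The median log2 fold change was -0.17, and their summed level was 87.3% to 90.3% of the control mean after HUWE1 siRNA. The ATF4 transcript read 1313, 1342, 1300.3 and 1339 TPM in the controls and 1251, 1276, 1254 and 1266 TPM after HUWE1 siRNA, a fall of 0.07 on the log2 scale that passed the test (limma adjusted p = 0.0324) but not in 6 of the 8 fits that left out 1 library, of which only those without non-targeting replicate 3 or HUWE1 siRNA replicate 2 kept it. CEBPG, whose product pairs with ATF4, read 269.6, 275, 281 and 281 TPM in the controls and 219, 201, 205 and 203 TPM after HUWE1 siRNA. All 4 HUWE1 siRNA values were below all 4 controls for both genes, and the log2 fold change of CEBPG was -0.42 ± 0.030 (limma adjusted p = 3.46e-05).

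PPP1R15A, the phosphatase subunit that ends the response, fell from 176 ± 4.79 to 133 ± 5.51 TPM (-0.40), and SLC7A5, the large neutral amino acid transporter, from 251 ± 3.90 to 197 ± 7.68 TPM (-0.35). CHAC1, which degrades glutathione, read 141, 147, 139 and 138 TPM in the controls and 116, 114, 109 and 104 TPM after HUWE1 siRNA (-0.35). GDF15, a secreted stress hormone, was at a low level and fell from 4.86 ± 0.65 to 2.11 ± 0.22 TPM (-0.91). The leucine sensor gene SESN2 fell by 0.29 and the mitochondrial serine enzyme gene SHMT2 by 0.28. Falls were small for the synthesis genes PSAT1 (-0.10) and ASNS (-0.08), the latter lost without non-targeting replicate 1, 2 or 4 or HUWE1 siRNA replicate 2 or 3. DDIT3, the classical marker CHOP, read 112, 120.3, 118 and 110.3 TPM in the controls and 114, 108, 106 and 113 TPM after HUWE1 siRNA, with overlapping groups (log2 fold change -0.06, limma adjusted p = 0.197), and PHGDH had a log2 fold change of -0.02 that was not called. Of the sensors of endoplasmic reticulum stress, EIF2AK3 fell by 0.34 and the factor gene XBP1 by 0.27, while the chaperone gene HSPA5 was not called (0.08). Among 39 genes of endoplasmic reticulum folding and the unfolded protein response 4 rose (10.3%) and 5 fell (12.8%). The 23.1% called lay below the 30.3% of all genes tested. The ATF4-type amino acid response element TGATGNAAT stood in 1 of 28 promoter windows of the list (3.57%). Its share was 0.452% over windows of the genes tested and 1.02% over all windows.

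Many lysosomal genes rose. Lysosomes digest proteins, lipids and sugars at low pH, and TFEB and TFE3 are known to control their genes. Of 51 genes for lysosomal enzymes and membrane proteins 27 rose (52.9%, against 12.3% of all genes tested) and 2 fell (3.92%, against 17.9%), with a median log2 fold change of 0.15. Their summed level was 99.4% to 100.5% of the control mean in the controls and 110.5% to 113.9% after HUWE1 siRNA. PSAP, which encodes the precursor of the saposins that aid lipid breakdown, read 526, 540.1, 532 and 537 TPM in the controls and 631, 639, 629.5 and 631 TPM after HUWE1 siRNA. The groups were narrow and apart, with a log2 fold change of 0.25 ± 0.019 (limma adjusted p = 5.82e-05). The hydrolase genes GLB1 (0.27), SGSH (0.30) and NEU1 (0.34) rose, as did the cholesterol carrier gene NPC2, which read 46.3, 49.3, 47.8 and 51.8 TPM in the controls and 59.4, 61.4, 60.4 and 62.1 TPM after HUWE1 siRNA (0.31).

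The V-ATPase is the proton pump of the lysosome. Of its 19 subunit genes 10 rose (52.6%, against 12.3% of all genes tested) and 2 fell (10.5%, against 17.9%), with a median of 0.12. Their summed level was 99.8% to 100.4% of the control mean in the controls and 101.9% to 105.7% after HUWE1 siRNA. ATP6V0D1 read 13.5, 12.6, 13.2 and 12.7 TPM in the controls and 16.8, 17.8, 17.1 and 17.3 TPM after HUWE1 siRNA (0.38 ± 0.037, limma adjusted p = 1.44e-04). ATP6V0C, which forms the rotor ring, rose from 148 ± 4.85 to 182 ± 7.22 TPM (0.29), and TCIRG1 rose by 0.36. The 2 that fell were ATP6V0E2 (-0.24) and ATP6V1E1 (-0.16). TFEB (-0.03) and TFE3 (0.04) were not called at the transcript level, and their relative MITF fell from 6.71 ± 0.20 to 5.64 ± 0.40 TPM (-0.22). Of 47 genes of the autophagy machinery 8 rose and 5 fell (median 0.04), and the 27.7% called lay near the 30.3% of all genes tested, with ATG14 at 0.25 and ATG5 at -0.19.

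The E-box stood in 10 of 35 promoter windows of the lysosomal list (28.6%), 7 of them of genes called higher and 0 of genes called lower, and in 4 of 14 of the V-ATPase list (28.6%), 2 of them of genes called higher and 1 of a gene called lower. The longer CLEAR element is a palindrome with an E-box at its centre. It stood in 3 of 35 windows of the lysosomal list (8.57%), in 0.768% of those of genes tested and in 0.381% of all windows. Other lists held it too, among them V-ATPase (1 of 14), DNA replication (2 of 42, 4.76%) and Mediator (1 of 25, 4.0%). Some lists held none, such as autophagy (0 of 40). Shares as high also stood in lists called in both directions: the E-box was in 7 of 22 windows of the list of MondoA and FOXO responses (31.8%, 1 called higher and 2 lower), in 8 of 29 of the mTORC1 and growth control list (27.6%, 2 and 2) and in 10 of 38 of the translation factors (26.3%, 3 and 4). The E-box was thus not limited to lists whose calls went mostly one way, and these shares are a description with no test. The 250 bases before the start are shown for the protease gene CTSD, the calcium channel gene MCOLN1 and ATP6V0D1, again picked after the matches were seen because each rose, with E-boxes in capitals and, in MCOLN1, a CLEAR element in capitals as well. The log2 fold changes of the first and second of these were 0.22 and 0.19.
CTSD, chr11:1763928-1764177, minus strand: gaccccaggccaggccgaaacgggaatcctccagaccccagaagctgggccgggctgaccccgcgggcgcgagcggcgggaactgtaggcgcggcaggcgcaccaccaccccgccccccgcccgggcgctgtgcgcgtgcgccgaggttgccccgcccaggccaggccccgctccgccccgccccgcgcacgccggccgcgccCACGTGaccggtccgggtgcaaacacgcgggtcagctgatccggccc
MCOLN1, chr19:7522374-7522623, plus strand: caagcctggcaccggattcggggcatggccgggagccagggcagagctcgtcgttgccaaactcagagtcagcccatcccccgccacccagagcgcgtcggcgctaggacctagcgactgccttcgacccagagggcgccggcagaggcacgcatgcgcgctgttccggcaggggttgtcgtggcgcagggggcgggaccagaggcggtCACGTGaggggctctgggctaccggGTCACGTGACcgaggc
ATP6V0D1, chr16:67481158-67481407, minus strand: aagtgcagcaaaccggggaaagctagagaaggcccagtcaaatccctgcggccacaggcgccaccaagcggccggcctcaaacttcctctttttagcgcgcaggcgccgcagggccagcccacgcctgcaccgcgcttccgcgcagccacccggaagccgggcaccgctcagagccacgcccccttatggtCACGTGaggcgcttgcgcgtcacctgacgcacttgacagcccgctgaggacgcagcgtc

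**Figure D4:**
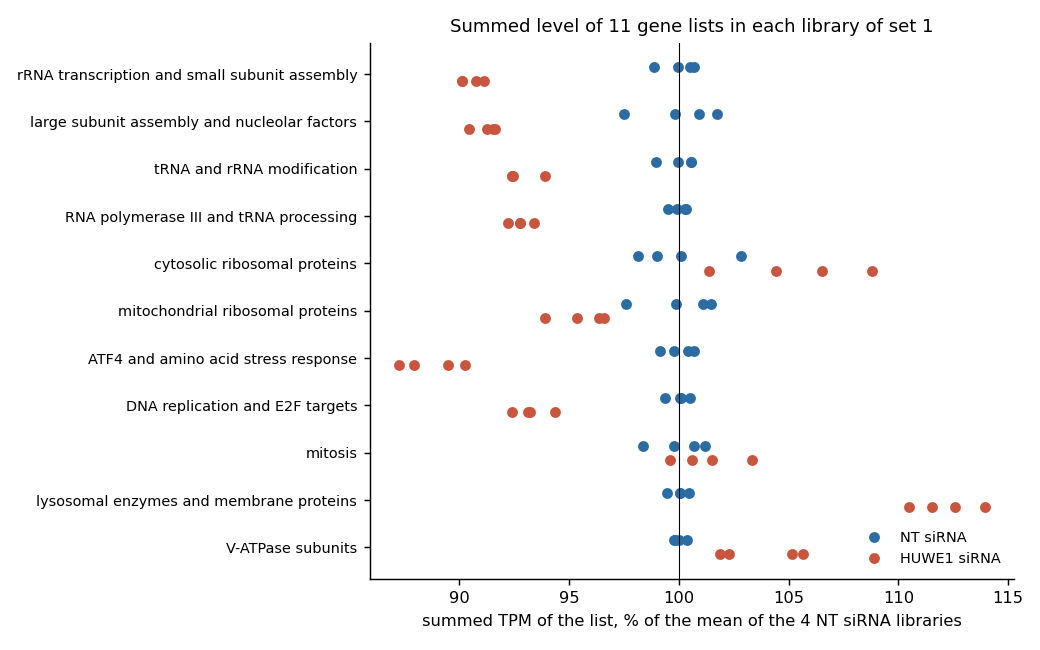
Summed TPM of 11 gene lists in each of the 8 libraries (points) as a percent of the mean of the 4 NT siRNA libraries (horizontal axis), with NT siRNA in blue and HUWE1 siRNA in red. The 4 HUWE1 siRNA libraries lie at 110.5% to 113.9% for lysosomal genes and at 87.3% to 90.3% for the ATF4 list, and the groups overlap for cytosolic ribosomal proteins and mitosis.

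Called genes of DNA replication were mostly lower, though 24 of 49 were not called. Of these 49 replication genes and E2F targets 22 fell (44.9%, against 17.9% of all genes tested) and 3 rose (6.12%, against 12.3%), with a median of -0.06. CLSPN, a replication checkpoint adaptor, read 82.7, 82.7, 77.6 and 78.3 TPM in the controls and 63.9, 61.2, 62.7 and 58.99 TPM after HUWE1 siRNA (-0.38 ± 0.033, limma adjusted p = 9.3e-05). MCM3, a subunit of the replicative helicase, read 482, 479.6, 481 and 482 TPM in the controls and 423, 420.4, 414 and 403 TPM after HUWE1 siRNA (-0.21). The control values of MCM3 were almost equal, and neither gene's groups overlapped. E2F2 (-0.37), the origin licensing gene CDC6 (-0.29) and the cyclin E genes CCNE1 (-0.31) and CCNE2 (-0.27) fell, while E2F1 was not called (-0.03). Of 59 DNA repair genes 20 fell (33.9%) and 6 rose (10.2%), with RBBP8 at -0.33 and RAD51D at -0.32.

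Of 47 mitosis genes 18 rose (38.3%, against 12.3% of all genes tested), 4 fell (8.51%, against 17.9%) and 25 were not called, with a median of 0.06. The kinesin gene KIF20A read 47.4, 51.3, 48.1 and 46.2 TPM in the controls and 57.6, 55.6, 59.03 and 57.2 TPM after HUWE1 siRNA (0.25). NUSAP1, a spindle protein gene, went against its list and read 207, 203, 202 and 203 TPM in the controls and 157, 147, 152 and 148 TPM after HUWE1 siRNA (-0.43 ± 0.026, limma adjusted p = 1.09e-05). BIRC5, which encodes survivin, fell by 0.24, and SPC24 (0.21), BUB1 (0.16) and INCENP (0.19) rose. Among regulators of entry into the cycle, cyclin D1 was higher as given above, CDK4 fell by 0.13, and SKP2, the ligase subunit that degrades p27, fell from 129.6 ± 7.14 to 94.7 ± 2.71 TPM (-0.45). The cyclin-dependent kinase inhibitor gene CDKN1A was not called (0.04).

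Called genes of nucleotide synthesis were mostly lower. Of 35 purine and pyrimidine genes 16 fell (45.7%, against 17.9% of all genes tested) and 4 rose (11.4%, against 12.3%), with a median of -0.07. NME1, a nucleoside diphosphate kinase gene, read 208, 219.8, 209.7 and 213 TPM in the controls and 164, 159.6, 165 and 165 TPM after HUWE1 siRNA (-0.38 ± 0.024, limma adjusted p = 1.35e-05). The ribonucleotide reductase subunit gene RRM2 fell from 71.2 ± 0.34 to 56.6 ± 2.13 TPM (-0.33) and the thymidylate synthase gene TYMS from 160.0 ± 6.65 to 129 ± 2.75 TPM (-0.31). In polyamine synthesis, SRM fell as given above, and ODC1, the rate-limiting decarboxylase, fell by 0.15. In that list of 18 genes 3 fell (16.7%) and 2 rose (11.1%), shares near those of all genes.

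The lipase of lipid droplets and its partners changed. PNPLA2, which encodes the lipase ATGL, read 74.1, 79.6, 74.8 and 75.9 TPM in the controls and 92.4, 107, 92.7 and 104 TPM after HUWE1 siRNA (0.37 ± 0.050, limma adjusted p = 6.77e-04), and its inhibitor G0S2 and its partner PLIN5 moved down and up as given above. The droplet coat gene PLIN2 was not called (-0.08). Of 30 tested genes of this list 8 rose (26.7%, against 12.3% of all genes tested) and 3 fell (36.7% called in all, against 30.3%), with a median of 0.04 that was -0.00346 when members below the filter on low values were added. Sterol and fatty acid synthesis had 12 of 38 genes higher (31.6%) and 3 lower (7.89%), with a median of 0.05. FASN, which encodes fatty acid synthase, rose by 0.21. Heme and iron handling had 5 of 31 genes higher (16.1%) and 5 lower (16.1%), with a median of 0.02. The 32.3% called lay near the 30.3% of all genes tested. In this list HMOX1 fell as given above and ALAS1, the first enzyme of heme synthesis, fell by 0.29. FTH1, the ferritin heavy chain gene, fell by 0.17, while BLVRB rose by 0.40. NFE2L2, which encodes the oxidative stress factor NRF2, was not called (-0.01). The list of NRF2 targets and redox enzymes, without HMOX1, had 10 of 37 genes higher (27.0%) and 6 lower (16.2%), with a median of 0.03.

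Interferon and antigen presentation genes were called in both directions. Their list had 11 of 36 genes higher (30.6%, against 12.3% of all genes tested) and 7 lower (19.4%, near the 17.9% of all genes), with a median near 0 whose sign changed with the scaling. HLA-C read 264, 253, 259 and 269 TPM in the controls and 301, 333, 323 and 330.5 TPM after HUWE1 siRNA (0.30 ± 0.035, limma adjusted p = 3.45e-04). HLA-E (0.19) and B2M (0.16) rose, as did the factor genes IRF7 (0.43) and STAT2 (0.26) and the proteasome activator subunit genes PSME1 (0.39) and PSME2 (0.23). HLA genes are near-identical to each other in part, so reads could be shared between them. IFI6 rose by 0.33, and ETV7 fell as given above. The proteasome as a whole had 8 of 43 genes higher and 6 lower (32.6% called, near the 30.3% of all genes), also with a median near 0.

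Called matrix genes were mostly higher. Of 49 collagen and extracellular protease genes 18 rose (36.7%, against 12.3% of all genes tested) and 4 fell (8.16%, against 17.9%), with a median of 0.03 and with COL3A1 (0.28) and LAMC1 (0.14) among those that rose and the urokinase gene PLAU (-0.47) among those that fell. Of 20 tested markers that HEK293T cells share with renal progenitors and neurons 4 fell and 1 rose, a smaller share than the 30.3% called over all genes tested. The summed level of that list was 86.5% to 90.0% of the control mean after HUWE1 siRNA. Its members include NEFM, whose values are given above, and NEFL, which fell from 92.3 ± 3.87 to 75.6 ± 3.33 TPM. PAX2, a marker of the renal lineage, was not called (-0.11). Of 33 tested histone genes 11 fell (33.3%) and 0 rose (median -0.23), with the variant genes H2AFV (-0.13) and H1F0 (-0.16) among them. Most histone transcripts lack a poly(A) tail, and many histone genes are near-identical, so the clustered histone genes are uncertain.

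Immediate early genes were called about as often as all genes, 29.7% against 30.3%, with 9 of 37 lower (24.3%, against 17.9%) and 2 higher (5.41%, against 12.3%) and a median of -0.07. JUND (-0.32) and KLF10 (-0.38) fell. In the control of growth by nutrients, IRS1, a receptor substrate, fell from 9.69 ± 0.24 to 6.69 ± 0.36 TPM (-0.48), EIF4EBP1, the translation repressor that mTORC1 switches off, from 635 ± 35.04 to 487 ± 10.9 TPM (-0.38), and the folliculin gene FLCN rose by 0.19. The list of this pathway had 7 of 37 members higher (18.9%) and 8 lower (21.6%), with a median of 0.02, and MTOR itself had a log2 fold change of 0.04 (limma adjusted p = 0.367). Of 19 genes of the MYC network 3 rose (15.8%) and 4 fell (21.1%). MXD4, a MAX partner that opposes MYC, rose from 37.8 ± 0.67 to 46.9 ± 1.48 TPM (0.31), MLXIPL by 0.40, and MNT fell by 0.19.

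Transcripts of the ubiquitin system and of reported substrates showed no single direction. Of 27 tested HECT ligase genes 4 rose and 3 fell, HUWE1 included (25.9% called, against 30.3% of all genes tested), with HACE1 at -0.30 and TRIP12 at 0.14. UBA1, the main ubiquitin-activating enzyme, rose from 196 ± 2.53 to 238 ± 8.49 TPM (0.28), and UBE2L3, a conjugating enzyme that serves HECT ligases, fell by 0.16. Of 36 genes whose products are reported substrates, or are linked to HUWE1, 9 fell and 3 rose (33.3% called, near the share of all genes), with a median of -0.04. TIAM1, an activator of the GTPase Rac, read 26.9, 27.2, 27.5 and 26.3 TPM in the controls and 17.6, 17.4, 17.5 and 17.1 TPM after HUWE1 siRNA. The values of each group lay close together and the log2 fold change was -0.60 ± 0.029 (limma adjusted p = 4.41e-06). MCL1 was not called (-0.03). Of 33 Mediator genes 9 fell (27.3%, against 17.9%) and 4 rose (12.1%, against 12.3%), with MED10 at -0.34 beside the MED19 values above. The mitochondrial chaperone gene HSPA9 fell from 271 ± 3.73 to 210.5 ± 4.25 TPM (-0.36), within a list of 43 chaperone genes of which 15 fell (34.9%) and 7 rose (16.3%).

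The calls also differed with gene structure, as a description over 15690 annotated genes of which 12.5% were called higher and 18.04% lower. When these genes were divided into 4 classes of equal size, the 3923 with the most exons were called higher in 18.1% and lower in 14.9%, against 7.77% and 18.4% for the 3923 with the fewest. Among 1477 genes with a single exon 6.64% were higher and 18.01% lower, with a median log2 fold change of -0.06. Antisense genes (851) and long intergenic noncoding RNAs (795) were called higher in 5.52% and 5.41% and lower in 12.2% and 12.1%, and they are also less abundant. By level, the lowest of 4 classes had 5.48% higher and 9.41% lower and the highest class 16.4% and 27.1%. Expression level, exon number and biotype move together, and their parts were not separated.

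Sets 2 and 3 gave values for the same genes from libraries that share none with set 1, in a table normalized separately. Over the 15296 genes tested in both tables, the set 1 log2 fold changes correlated with those of set 2 at a Pearson r of 0.29 and a Spearman rho of 0.33, and with those of set 3 at 0.38 and 0.39. Sets 2 and 3 share their controls and are not 2 independent comparisons. Of the 1959 genes called higher in set 1, 67.6% had a positive fold change in set 2, where 47.7% of all genes did, and 77.5% in set 3, where 50.9% did. Of the 2808 called lower in set 1, 74.5% were negative in set 2, against 52.3% of all genes, and 75.3% in set 3, against 49.1%. Limma called 0.0126% of 15860 genes in set 2 (0% higher, 0.0126% lower) and 11.6% in set 3 (7.45% higher, 4.15% lower), so signs and sizes are given in place of calls.

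Of the genes with the largest changes in set 1, 16 of 24 that rose had the same sign in set 2 and 20 of 24 in set 3. Of those that fell, 19 of 20 and 18 of 20 did. The values were mostly nearer to 0 than in set 1, which a pick of the largest changes in set 1 favours by itself. The median log2 fold change of falling genes was -0.69 in set 1 over all 22, -0.12 in set 2 and -0.27 in set 3. That of the rising genes was 0.47, 0.06 and 0.18. INHBE had log2 fold changes of -0.44 in set 2 and -0.81 in set 3, G0S2 -0.29 and -0.87, DEPP1 -0.36 and -0.96, and MED19 -0.09 and -0.61. DEPP1 and DDIT4 (-0.80) had values in set 3 at least as negative as in set 1. So did genes outside the largest changes, among them CCDC86 (-0.57), TRMT61A (-0.77), DHX37 (-0.53) and MYC (-0.45). S100P had -0.24 and -0.24, and TRIB3 0.21 and 0.07. Whether any gene's change differs between set 1 and the other sets was not tested.

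By list, the median log2 fold change of ribosomal RNA transcription and small subunit assembly was -0.06 in set 2 and -0.12 in set 3, with 38 and 40 of 47 members negative. That of large subunit assembly was -0.06 and -0.10, with 42 of 49 negative in each. Lysosomal genes had medians of 0.01 and 0.07, and V-ATPase genes 0.02 and 0.16. Cytosolic ribosomal protein genes had 0.11 and 0.12, with 75 and 72 of 75 members positive. The ATF4 list had 0.01 and -0.04, near 0 in both, DNA replication genes 0.02 and 0.06, against -0.06 in set 1, and sterol and fatty acid synthesis genes -0.10 and -0.06, against 0.05 in set 1. The difference of these medians between sets was not tested.

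**Figure D5:**
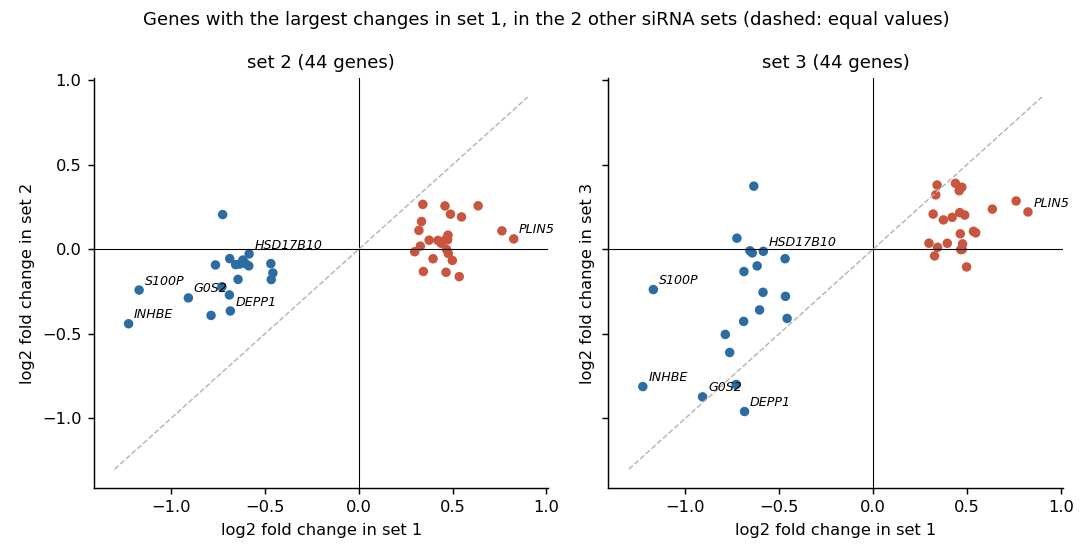
Log2 fold change in set 2 (left) and set 3 (right) against that in set 1 (horizontal axes) for the named genes with the largest changes in set 1 that were tested in both tables, 1 point a gene, with those that rose in set 1 in red and those that fell in blue. Most points share the sign of set 1 and lie nearer to 0 than the dashed line of equal values, DEPP1 in set 3 being an exception. The genes were picked for the size of their change in set 1, which by itself favours values nearer to 0 elsewhere.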

How the data were processed

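RNA was sequenced from HEK293T cells, and the authors deposited 1 table of TPM values for the 8 libraries of set 1 and another for the 12 of sets 2 and 3, scaled separately. Per the submitters' processing notes the genome build was hg38. The sources used here do not name the aligner, the counter or the annotation, and no read counts are in these tables, so depth is unknown. Values became log2(TPM + 1), genes at 1 TPM or more in at least 4 of 8 libraries were kept, and limma 3.58.1 (R 4.3.3) with a mean trend compared the groups over all genes with Benjamini-Hochberg adjustment at 0.05. Sets 2 and 3 were fitted in 1 model of their 12 libraries. For HUWE1 alone an exact two-sided permutation test of the 4 against 4 TPM values was run in scipy 1.17.1 (Python 3.11.15, pandas 2.3.3). The scripts were tested on simulated data.

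Genes named were the 15 and 15 largest called changes at a mean of 5 TPM or more without overlap between groups, the 10 and 10 largest at 100 TPM or more, up to 6 members of each list described with the smallest p, and genes whose role the text needs, called or not. Clone-type symbols and near-identical copies were passed over. Some genes the rule gave are not reported here. The members and lists were chosen with earlier results of these data known. The near-identical copies, some role genes, the 11 lists plotted and the promoters shown were chosen after values were seen. Positions and gene classes came from GENCODE release 29, promoter windows from RefSeq.

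The labels call the samples biological replicates and do not say whether a number marks a shared day, so the main comparison used no pairing. Deviations of same-numbered libraries from their group means correlated at 0.0300, 0.0135, 0.000215 and 0.0521. Alternatives covered the pseudocount (0.1), the filter, 3 scalings, the limma settings, the replicate block and leaving out each library.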

Additional observations from a re-analysis of the deposited data

Results flagged for a closer look

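Among 376 groups of 4 values (188 named genes in each group of set 1), 13 groups, 3.46%, held a library far from the other 3 relative to the range of the group. Chance flags about 1 in 20 such groups. Among controls, non-targeting replicate 1 was highest for METTL1 (81.9 TPM, the others 73.2 to 74.6) and NUSAP1 (207.4, the others 202.1 to 202.7). Replicate 2 was lowest for CCND1 (8.20 TPM), FTH1 (931 TPM) and MIR22HG (3.01 TPM) and highest for RPF2 (81.3 TPM). Replicate 3 was highest for ETV7 (7.41 TPM, the others 5.39 to 5.54) and lowest for SRM (326 TPM).

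After HUWE1 siRNA, replicate 1 was highest for GDF15 (2.44 TPM) and TRMT6 (33.6 TPM) and lowest for IRF7 (31.0 TPM, the others 35.8 to 36.0), each time on the side of the controls. Replicate 2 was lowest for NME1 (159.6 TPM) and replicate 3 for TCEAL7 (18.7 TPM).

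A few named genes had groups that did not overlap in set 1 and did not overlap in the opposite direction in another set. C11orf96 had a log2 fold change of -0.63 in set 1 and 0.37 in set 3, and CCNE2 had -0.27 and 0.35. IFI6 had 0.33 in set 1, -0.19 in set 2 and -0.24 in set 3. MT-ATP6 had 0.09 in set 1 and -0.26 in set 3. These differences between sets were not tested, and sets 2 and 3 share their controls.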

How the results depend on the processing

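Of 354 called genes among all those the naming rule gave, 320 kept the call under every alternative run and 34 lost it in at least 1. The genes printed were narrowed after these values were seen, and some with unstable calls were left out, so they are more stable than the rule's genes as a whole. Of 169 printed and called, APOE, ASNS, ATF4, EEF1A1, FAM120C and MT-ATP6 lost the call in at least 1 alternative. FBL, PAX2, RIBC1 and SMC1A, not called in the main comparison, were each called in 1 alternative. At a log2 fold change of 0.5 or more, 175 calls were left, 34 higher and 141 lower. Leaving out 1 library at a time gave 3640 to 4675 calls, 1418 to 1879 higher and 2222 to 2796 lower. With a replicate block, though same-numbered libraries did not deviate together and only replicate 4 correlated best with its own number, 4597 genes were called (1902 higher, 2695 lower). The HUWE1 difference was -73.1 to -70.5 TPM without 1 library, where the exact permutation p is 0.0571, the smallest that 4 against 3 allows.

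Medians of the 11 plotted lists moved with scaling, and none of these changed sign. Of the other lists whose medians are described, 3 changed sign in at least 1 alternative. The lipid droplet median was -0.00346 when members below the filter were added. The interferon median, -0.0075 with all libraries, was 0.082 at a mean TPM of 5 or more, 0.022 with quantile normalization, 0.00924 under median ratios and -0.0332 to 0.0116 without 1 library. The proteasome median, 0.0021 with all libraries, was -0.00832 to 0.0135 without 1 library. For the plotted lists the values that moved were as follows. With median-of-ratios scaling the median was -0.13 for small subunit assembly and for large subunit assembly, -0.064 for RNA modification, -0.10 for RNA polymerase III, -0.0439 for mitochondrial ribosomal proteins, -0.0416 for DNA replication, -0.15 for the ATF4 list and 0.16 for lysosomal genes. With quantile normalization it was -0.12 for large subunit assembly, -0.062 for RNA modification, 0.0505 for cytosolic and -0.033 for mitochondrial ribosomal proteins, -0.14 for the ATF4 list, 0.17 for lysosomal and 0.16 for V-ATPase genes. Without mitochondrially encoded transcripts it was -0.0532 for DNA replication. Leaving out 1 library gave -0.17 to -0.14 for small subunit assembly, -0.14 to -0.11 for RNA polymerase III and 0.13 to 0.15 for lysosomal genes.

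Some values near 0 changed sign. With median-of-ratios scaling NFE2L2 was 0.00824, NPM1 0.00089 and UBTF 0.016. With quantile normalization MT-ATP6 was listed at 0, PHGDH 0.026 and UBTF 0.021, and UBTF was 0.00488 without mitochondrially encoded transcripts. Leaving out 1 library gave MAX -0.0462 to 0.00343, NFE2L2 -0.0398 to 0.0231, NPM1 -0.0559 to 0.00846, PHGDH -0.0472 to 0.00434, TFEB -0.0664 to 0.00791 and UBTF -0.0145 to 0.0114. The cause of these shifts was not tested. Depth is unknown, so counting error could not be given.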
